A study of Mus musculus with 6 samples.

Results

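The cardiac myosin chains and the Mhrt transcript were measured in mouse hearts with 1-colour Agilent arrays. They comprised 10 genes of 28909 gene names on the array, found by name, with 13 probes of 55681. The genes were Myh6, Myh7 and Myh7b, which encode heavy chains, D830015G02Rik, the array's name for Mhrt, the light chain genes Myl1, Myl2, Myl3, Myl4 and Myl7, and the light chain kinase gene Mylk3. All 10 names matched a symbol or synonym of the RefSeq gene table. The list was selected on the difference between the groups at Myh7 and other members, which was already known. The values of the members are therefore given as a description. Where the text says which of them lay past the threshold of the fit over all probes, this describes the selected values and supports nothing.

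A mouse hung by its tail bears no weight on its hindlimbs, which serves as a model of weightlessness. Male C57BL/6 mice were tail-suspended for 28 days (n = 3) or kept as sham animals in the same space and with the same feed (n = 3), and the labels of both groups name no drug. The labels put the start at 10 weeks of age and the age of both groups at 11 weeks, which cannot both hold after 28 days. Total RNA of cardiac muscle was used, and the chambers taken were not stated. Nothing in the labels says more of how the replicates were taken than their numbers, so the spread within a group may be partly technical.

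Each array held 55681 probes, of which 50.9% to 53.4% were well above background, and no spot was saturated. Values are processed intensities, the brightness of a spot after background correction, in arbitrary units. For the comparison, each was put on a log2 scale with the 75th percentile of its array at 0. The test covered the 28032 probes whose signal was well above background on all arrays of one group or of both. The median log2 fold change of these probes was -0.0049. The first row of the slide held the sham arrays and tail-suspension replicate 1, whereas replicates 2 and 3 of tail-suspension lay in the second. Precision is limited by the number of arrays: with 3 against 3, the smallest two-sided p of an exact permutation test is 0.1.

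Myosin is the motor of the thick filament, built of paired heavy chains that each carry an essential and a regulatory light chain. The ventricle of the adult mouse uses mainly the fast alpha heavy chain of Myh6, whereas the slower beta heavy chain of Myh7 predominates before birth and returns in overloaded or hypothyroid hearts. Both genes lie in tandem, and Mhrt is a long noncoding RNA read in the opposite direction from the same locus, known to bind the chromatin remodeller Brg1. Myh7b encodes another slow heavy chain. The introns of Myh6, Myh7 and Myh7b hold the microRNA genes Mir208a, Mir208b and Mir499, which take part in the control of the slow chains.

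The probes on which the results turn are printed 5′ to 3′, because 2 probes of 1 locus can differ in their change and the position of each decides what it reads. The Myh6 probe at the 3′ end, the Myh7 probe and its neighbour are given by their first 30 bases of 60, and positions are on mm9, as in the files. The probe of Myh6 nearer the 5′ end lies at chr14:55584132-55584191 and its other probe at chr14:55560774-55560833, both on the minus strand. The Myh7 probe lies at chr14:55589581-55589640 on the minus strand, and the next probe, which the array leaves unnamed, adjoins it at chr14:55589521-55589580 on the same strand. The Mhrt probe lies at chr14:55592952-55593011 on the plus strand, and the Myh7b probe at chr2:155459122-155459181 on the plus strand.
Myh6, probe nearer the 5′ end: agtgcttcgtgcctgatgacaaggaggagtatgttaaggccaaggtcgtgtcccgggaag
Myh6, probe at the 3′ end: gcacgacgaggaataacctctccagcagac
Myh7: atgaggagtagctcttgtgctacccagctc
Unnamed neighbour of Myh7: agcctttgcaacagccctttaggtggaagc
Mhrt (D830015G02Rik): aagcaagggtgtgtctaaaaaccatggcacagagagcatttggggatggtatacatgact
Myh7b: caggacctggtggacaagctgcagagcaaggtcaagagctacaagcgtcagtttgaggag

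The largest differences among the members were at the heavy chain genes and Mhrt. Myh7 and Myh7b were higher in tail-suspended hearts, by 4.49-fold and 3.41-fold. Mhrt was 10.0-fold lower, and the Myh6 probe nearer the 5′ end was 2.78-fold lower, whereas the Myh6 probe at the 3′ end differed by 1.07-fold. An adjusted p under 0.05 in limma was reached by 2 of the 12 tested member probes in the higher and 4 in the lower direction, against 10.8% and 9.57% of all tested probes. The groups did not overlap on the log2 scale at 3 member probes in the higher and 5 in the lower direction, against 22.1% and 21.9% of all tested probes.

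**Figure D1:**
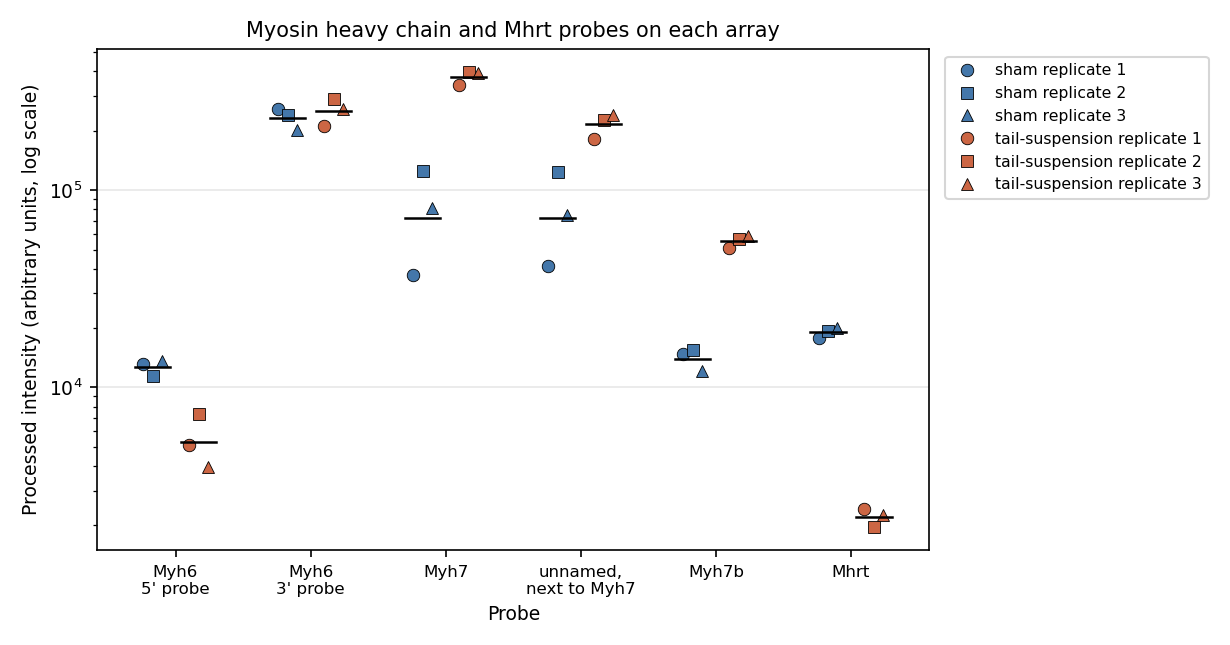
Processed intensity (arbitrary units, log axis) of 5 heavy chain and Mhrt probes and of the unnamed probe next to Myh7, on each array. Each symbol is 1 array (3 sham in blue, 3 tail-suspension in orange) and each bar the geometric mean of a group; Myh7, its neighbour and Myh7b are higher in tail-suspension without overlap, Mhrt and the Myh6 5′ probe are lower, and the Myh6 3′ probe overlaps.

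Myh7, the beta heavy chain, had intensities of 37055, 124674 and 81419 in the sham hearts of replicates 1, 2 and 3. In tail-suspended hearts it had 339524, 396767 and 390821. The sham hearts were spread over 3.36-fold and the tail-suspended hearts over 1.17-fold, and the lowest tail-suspended heart lay above the highest sham heart. The log2 level was 7.84 ± 0.90 in sham and 10.01 ± 0.04 in tail-suspended hearts (SD, n = 3 each), a log2 fold change of 2.17 with an SE of 0.41. Within the first row of the slide, tail-suspension replicate 1 stood 2.12 above the sham mean on the log2 scale. Without sham replicate 1, the lowest, the log2 fold change was 1.67, and without sham replicate 2, the highest, it was 2.55. Without tail-suspension replicate 3 it was 2.16, and Myh7 was then no longer past the threshold.

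The unnamed probe that adjoins the Myh7 probe end to end was read beside it, since it lies on the same strand of the same locus. Its intensities were 41315, 122860 and 74961 in sham hearts and 180883, 227697 and 241567 in tail-suspended hearts. It thus kept the order of the sham hearts seen at Myh7, and its groups did not overlap either. Its log2 fold change was 1.36 with an SE of 0.37, smaller than that of the Myh7 probe. The ratio of the Myh7 probe to its neighbour was 0.897, 1.02 and 1.09 in sham hearts and 1.88, 1.74 and 1.62 in tail-suspended hearts. The probes therefore changed unequally, and every tail-suspended heart had a higher ratio than every sham heart. The array does not name the transcripts that the neighbour reads.

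Myh7b, the gene of the other slow chain, had intensities of 14810, 15390 and 12065 in sham hearts. Tail-suspended hearts had 50839, 56690 and 58836. Both groups were tight, with spreads of 1.28-fold and 1.16-fold, and lay far apart. The log2 fold change was 1.77 with an SE of 0.10, and 1.74 for tail-suspension replicate 1 alone within the first row of the slide.

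Myh6, the alpha heavy chain, was read by 2 probes that lie 23298 bases apart in the genome and behaved differently. The probe nearer the 5′ end, at base 308 of the transcript, had intensities of 13164, 11373 and 13578 in sham hearts and 5102, 7294 and 3949 in tail-suspended hearts. Every tail-suspended heart was below every sham heart, with tail-suspension replicate 2 the nearest to them. Its log2 fold change was -1.47 with an SE of 0.23, and -1.43 for tail-suspension replicate 1 within the first row of the slide.

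The Myh6 probe at the 3′ end, at base 6003, had 257369, 239228 and 201768 in sham hearts and 211886, 290794 and 258600 in tail-suspended hearts. The groups overlapped, and the log2 fold change was -0.09 with an SE of 0.12. Thus the change of the 5′ probe was lower than that of the 3′ probe by 1.38 on the log2 scale. As a background, among 414 transcripts with a pair of tested probes at least 3000 bases apart, the median gap of the log2 fold changes, 5′ minus 3′ probe, was 0.01, with 10th and 90th percentiles of -0.36 and 0.35. The median log2 ratio of the 5′ to the 3′ probe over these transcripts lay between -1.62 and -1.56 on the 6 arrays. The part of RNA quality in the gap at Myh6 was not tested.

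Mhrt had intensities of 17828, 19299 and 20039 in sham hearts. In tail-suspended hearts it had 2423, 1958 and 2254. The groups were tight, with spreads of 1.12-fold and 1.24-fold, and no other member differed as much. The log2 fold change was -3.32 with an SE of 0.14. It was -3.09 for tail-suspension replicate 1 within the first row of the slide, and ranged from -3.44 to -2.89 over 18 alternative settings. The Mhrt probe lies 3311 bases from the Myh7 probe and is read on the other strand, and the sign of its difference was opposite to that of Myh7.

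**Figure D2:**
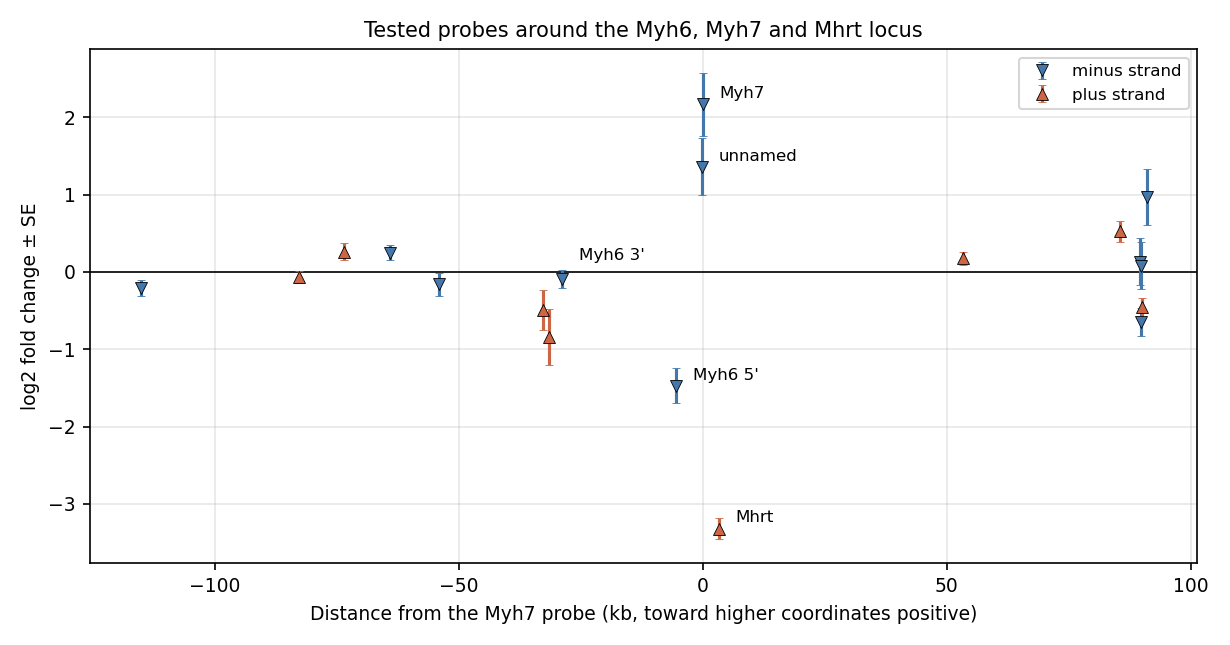
Log2 fold change, tail-suspension minus sham, with its SE, of the tested probes within 100 kb of the Myh6, Myh7 and Mhrt probes, against the distance from the Myh7 probe in kb. Downward triangles mark the minus strand and upward triangles the plus strand; Myh7 (2.17), its unnamed neighbour (1.36), the Myh6 5′ probe (-1.47) and Mhrt (-3.32) stand outside the range of the other probes, which runs from -0.84 to 0.96.

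The neighbourhood of the locus was read in the same way. Within 100 kb of the Myh6, Myh7 and Mhrt probes the array had 33 other probes, of which 15 were tested. Past the adjusted threshold, 2 of them were higher, one being the neighbour of Myh7, and 2 were lower, all 4 near the threshold (adjusted p between 0.0435 and 0.0493). The neighbour did not pass under 9 of 18 alternative settings. These included leaving out sham replicate 1 (log2 fold change 0.94), sham replicate 3 (1.41) or tail-suspension replicate 1, 2 or 3 (1.44, 1.34 and 1.30). The other 14 tested probes had log2 fold changes between -0.84 and 0.96. Both extremes, at Cmtm5 and Zfhx2, did not pass the test.

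The stretches of 250 bases before the RefSeq start sites on GRCm38.p6 were searched on both strands for CATTCC, the core of sites bound by TEAD factors, AGGTCA, the half-site of nuclear receptors such as the thyroid hormone receptors, and AGATAA, bound by zinc finger factors such as Gata4. They are shown because their genes share a locus or a direction. Matches are in capitals, and a match on the reverse strand appears as its complement. CATTCC was found at Myh6 and at Mhrt, 1 time each, and in 12.6% of 32851 such windows of the table. AGGTCA and AGATAA were each found 1 time at Myh7b, and in 14% and 9.99% of all windows. None of these letters was found at Myh7, for which the table lists 2 start sites and 1 is printed. Only exact letters were searched, so a site with variant letters would be missed. The windows lie at chr14:54966608-54966857 on the minus strand for Myh6, chr14:54968537-54968786 on the plus strand for Mhrt, chr14:54994550-54994799 on the minus strand for Myh7 and chr2:155610993-155611242 on the plus strand for Myh7b.
Myh6 upstream: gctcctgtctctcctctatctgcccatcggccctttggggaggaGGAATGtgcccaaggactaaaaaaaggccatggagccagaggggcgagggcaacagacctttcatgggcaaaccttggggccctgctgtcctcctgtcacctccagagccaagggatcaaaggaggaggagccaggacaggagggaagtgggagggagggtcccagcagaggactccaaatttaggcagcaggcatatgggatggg
Mhrt upstream: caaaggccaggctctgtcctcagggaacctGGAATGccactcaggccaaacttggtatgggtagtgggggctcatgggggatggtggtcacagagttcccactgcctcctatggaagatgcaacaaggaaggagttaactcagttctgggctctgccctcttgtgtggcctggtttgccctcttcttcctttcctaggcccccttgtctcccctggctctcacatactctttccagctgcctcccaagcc
Myh7 upstream: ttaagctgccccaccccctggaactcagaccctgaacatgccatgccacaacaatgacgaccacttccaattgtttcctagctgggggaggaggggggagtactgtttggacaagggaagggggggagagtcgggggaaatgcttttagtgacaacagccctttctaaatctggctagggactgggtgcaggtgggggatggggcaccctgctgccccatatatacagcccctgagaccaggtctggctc
Myh7b upstream: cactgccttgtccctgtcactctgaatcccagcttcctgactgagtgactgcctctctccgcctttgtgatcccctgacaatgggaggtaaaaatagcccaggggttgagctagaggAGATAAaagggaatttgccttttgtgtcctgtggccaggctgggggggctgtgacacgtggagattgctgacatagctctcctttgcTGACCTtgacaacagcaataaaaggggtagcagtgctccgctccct

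The microRNAs within the heavy chain genes were not measured, since 0 probes of the array carried their names. Their mature sequences from RefSeq are given with the seed, bases 2 to 8, in capitals, to show which of the hosts carry a common seed. The microRNAs of Myh6 and Myh7 share 1 seed, although their host probes differed in opposite directions or not at all. The seed of the microRNA of Myh7b differs from it only at base 8.
mmu-miR-208a-3p, in Myh6: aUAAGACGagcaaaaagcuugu
mmu-miR-208b-3p, in Myh7: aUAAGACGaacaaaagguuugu
mmu-miR-499-5p, in Myh7b: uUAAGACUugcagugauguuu

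The light chains of the adult ventricle differed little. Myl2, the regulatory light chain of the ventricle, had intensities of 261394, 261900 and 236128 in sham hearts and 248836, 271011 and 285099 in tail-suspended hearts, and its log2 fold change was -0.13 with an SE of 0.08. The intensities overlapped, whereas the log2 levels relative to the 75th percentile did not. Myl3, the essential light chain of the ventricle, had 349812, 300950 and 329462 in sham hearts and 321900, 374160 and 353418 in tail-suspended hearts, with a log2 fold change of -0.11 and an SE of 0.09. Neither probe passed the threshold. Over the alternative settings the highest log2 fold change of Myl3 was 0.04, under quantile normalization. For the Myh6 probe at the 3′ end the highest was 0.03, under the authors' own log2 values, where Myl3 had -0.02.

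Myl4 and Myl7, the essential and regulatory light chains of the atrium, varied between arrays more than between groups. Myl4 had 687, 984 and 1144 in sham hearts and 988, 473 and 690 in tail-suspended hearts, with overlapping groups and a log2 fold change of -0.63 with an SE of 0.34. Without tail-suspension replicate 1 this was -0.94, and for that replicate alone within the first row of the slide it was -0.01. Myl7 had 6.69, 8.18 and 33.6 in sham hearts and 24.98, 4.1997 and 4.09 in tail-suspended hearts. It was well above background on 1 array of each group, sham replicate 3 and tail-suspension replicate 1, and was therefore not tested. Sln, which encodes the atrial calcium pump inhibitor sarcolipin, was well above background on the same arrays, with 11.5, 3.08 and 82.3 in sham hearts and 43.1, 3.91 and 6.996 in tail-suspended hearts. The part of atrial tissue in these values was not tested.

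Myl1, the fast skeletal essential light chain gene that makes a long and a short chain from separate starts, was lower by both probes. At base 856 it had 5062, 4466 and 4716 in sham hearts and 2904, 2511 and 2596 in tail-suspended hearts, a log2 fold change of -1.04 with an SE of 0.12, or 2.06-fold lower. At base 107 it had 429, 388 and 369 in sham hearts and 195, 205 and 166 in tail-suspended hearts, a log2 fold change of -1.28 with an SE of 0.12, or 2.43-fold lower. Neither probe showed an overlap of the groups. The values of tail-suspension replicate 1 within the first row of the slide were -0.82 and -1.13. Of 11 fast skeletal muscle markers, Myh1, Myh2, Myh4, Mylpf and Actn3 were not well above background on any array, and the summed log2 level of the list was 4.25 to 4.62 in sham and 4.33 to 4.40 in tail-suspended hearts. Most of this sum was the probe of Atp2a1, the fast calcium pump, which alone had 3.78 to 4.34 in sham and 3.51 to 3.70 in tail-suspended hearts. Whether that probe reads Atp2a1 alone was not tested. Of the 6 tested markers 1 rose, Mybpc2, with a log2 fold change of 1.24 (adjusted p = 0.0178), and the median was 0.43. Pvalb, Tnnt3 and Tnni2 had 0.82, 0.62 and 0.25, and Atp2a1 had -0.52, none of them past the threshold.

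Mylk3, the cardiac kinase of the regulatory light chain, was read by 2 probes. At base 1931 it had 1571, 1398 and 1176 in sham hearts and 1827, 1989 and 2086 in tail-suspended hearts. These groups did not overlap, and the log2 fold change was 0.31 with an SE of 0.11. At base 1016 it had 165, 131 and 106 in sham hearts and 162, 178 and 167 in tail-suspended hearts, with overlap and a log2 fold change of 0.15 with an SE of 0.15. Neither probe passed the threshold.

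**Figure D3:**
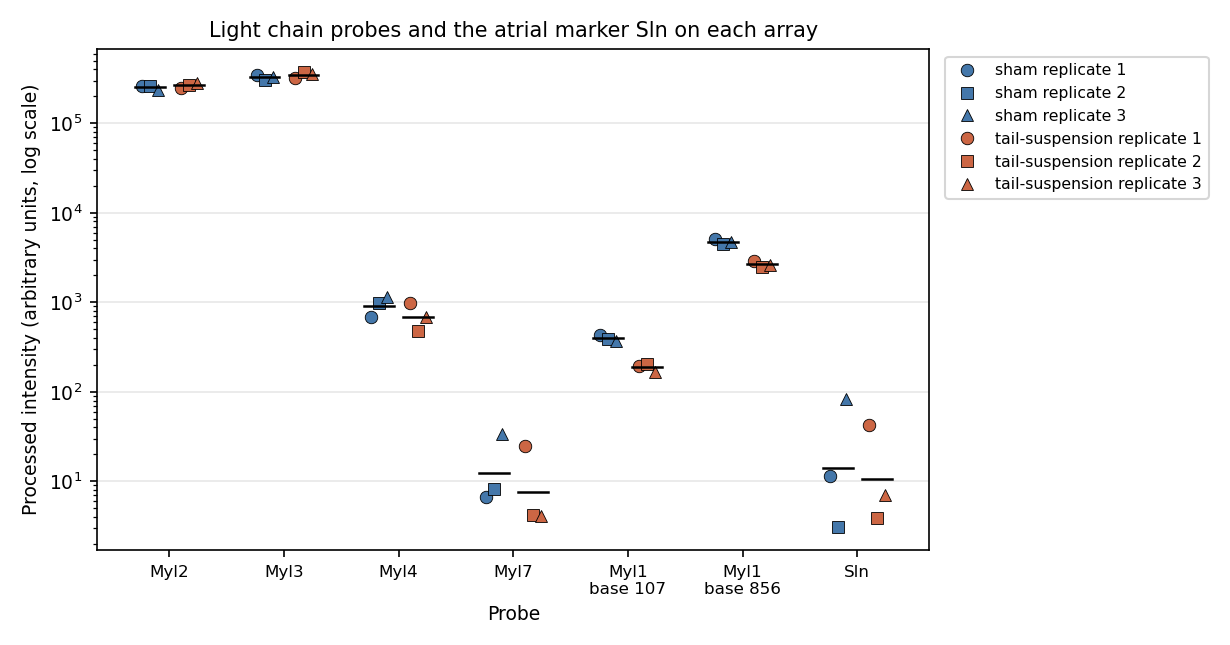
Processed intensity (arbitrary units, log axis) of the light chain probes and of the atrial marker Sln on each array, with the base of the transcript given where a gene has 2 probes. Each symbol is 1 array and each bar the geometric mean of a group; both Myl1 probes are lower in tail-suspension, and Myl7 and Sln are highest on sham replicate 3 and tail-suspension replicate 1.

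**Figure D4:**
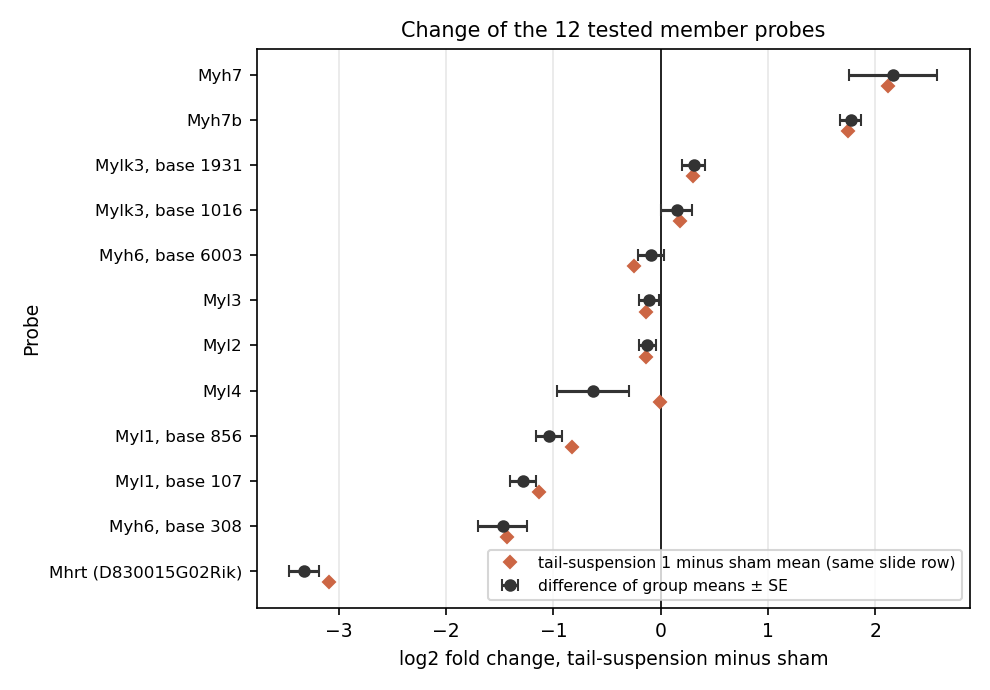
Log2 fold change, tail-suspension minus sham, of the 12 tested member probes, with its SE from limma (circles), and tail-suspension replicate 1 minus the sham mean, both from the first row of the slide (diamonds). The values run from -3.32 at Mhrt to 2.17 at Myh7, and the row-matched diamond lies furthest from the circle at Myl4.

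Genes around the members were read from 11 lists with 96 genes, none of them a member. Of these, 80 were tested, each by its brightest tested probe, and 6 (5 of them well above background on all 6 arrays) were higher and 8 lower past an adjusted p of 0.05 (limma fit, adjusted by Benjamini-Hochberg over all tested probes). Over all 17140 tested genes, 10.6% were higher and 10.5% lower. The median log2 fold change of the listed genes was -0.10, and that of all tested genes was -0.01.

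Of 11 other heavy chain genes 5 were tested, with a median of -0.11, and Myh1, Myh2, Myh3, Myh4, Myh13 and Myh15 were not. Myh8, the perinatal skeletal chain, was tested, with 76197, 72006 and 67802 in sham hearts and 63208, 86380 and 84813 in tail-suspended hearts, and had a log2 fold change of -0.11 (SE 0.11, adjusted p = 0.511). Its other tested probe was far dimmer, with 1546, 1263 and 1577 in sham hearts and 1281, 1646 and 1081 in tail-suspended hearts. That probe had a log2 fold change of -0.36 (adjusted p = 0.199). Whether the brighter probe reads Myh8 alone was not tested. Myh14, a nonmuscle heavy chain, rose in tail-suspended hearts by 0.67 on the log2 scale (SE 0.16, adjusted p = 0.031), from 9494 to 12745 in sham hearts to 15331 to 23427. Its other tested probe did not follow, at -0.23 (adjusted p = 0.436). Myh10, another nonmuscle chain, fell by 0.45 (SE 0.10, adjusted p = 0.0278). None of 4 tested other light chain genes passed the threshold, with a median of -0.04.

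Of 13 tested genes for kinases, phosphatase subunits, binding and assembly proteins, 3 were higher and 2 lower past the threshold, with a median of -0.07. Ppp1r12c, a subunit of a myosin phosphatase, rose by 0.94 (SE 0.12, adjusted p = 0.00537), from 4035, 3920 and 4243 in sham hearts to 8032, 8623 and 10621. Ppp1r12b, the subunit of the heart's myosin phosphatase, fell by 0.62 (SE 0.10, adjusted p = 0.0116) by its brightest probe, and its other tested probe was at -0.30 (adjusted p = 0.107). Mybpc2, fast myosin-binding protein C, rose by 1.24 (SE 0.24, adjusted p = 0.0178), from 463, 870 and 745 to 1813, 1826 and 1860. Mybphl, a myosin-binding protein H-like gene of the atrium, did not rise well above background in sham hearts and had 35.3, 34.5 and 48.1 in tail-suspended hearts. In the sham hearts it had 6.97, 6.78 and 12.9. It entered the test only through the tail-suspended hearts, so its place among the genes that passed is no evidence of a rise. With normexp background correction its log2 fold change was 0.25.

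Of 20 tested regulators of the cardiac myosin genes, 1 rose and 1 fell, with a median of -0.13. Tbx5, a T-box factor, rose by 0.56 (SE 0.12, adjusted p = 0.0238), and Gata4, a zinc finger factor, fell by 0.52 (SE 0.13, adjusted p = 0.0363). Smarca4, the gene of Brg1, had a log2 fold change of -0.17 (SE 0.08, adjusted p = 0.174). The thyroid hormone receptor genes Thra and Thrb had -0.12 (SE 0.09, adjusted p = 0.379) and 0.03 (SE 0.10, adjusted p = 0.825). Of 8 tested thyroid hormone responsive genes of the heart 0 passed the threshold by the brightest probe, with a median of -0.20. Dimmer probes of Hcn2 (-0.70, adjusted p = 0.0342), Atp2a2 (-0.64, adjusted p = 0.0369) and Kcna5 (0.80, adjusted p = 0.0471) did pass. The brightest probes of these genes were at -0.17, -0.29 and 0.72.

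Of 5 fetal cardiac genes, some of which are known to return with Myh7 under overload, 1 passed the test, and their median was 0.97. Tnni1 had a log2 fold change of 1.19 (SE 0.49, adjusted p = 0.129), with overlapping groups. Ankrd1, a stretch-responsive protein of the sarcomere, rose by 0.97 (SE 0.13, adjusted p = 0.00765), from 26119, 34737 and 29470 to 68178, 71853 and 63075. Nppa, the atrial natriuretic peptide, had 31435, 63834 and 45951 in sham hearts and 184658, 66435 and 238159 in tail-suspended hearts, a log2 fold change of 1.45 (SE 0.51, adjusted p = 0.0886). Nppb, the B-type peptide, had a log2 fold change of 0.74 (SE 0.50, adjusted p = 0.32) and Acta1, skeletal actin, one of -0.90 (SE 0.52, adjusted p = 0.245). In the sham hearts all 5 fetal genes, Tnni1 included, were lowest in replicate 1 and highest in replicate 2, as was Myh7, whichever way they differed between the groups. Among tail-suspended hearts Nppa in replicate 2 was near the highest sham heart, whereas Myh7 was at its highest there.

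Markers of heart cells and chambers were read beside the members, since in whole tissue fewer cells of a type and less RNA per cell cannot be told apart. Of 9 cardiomyocyte markers all were well above background on the 6 arrays, and Tnnt2 and Tnni3, the cardiac troponins, had log2 fold changes of -0.09 (SE 0.08, adjusted p = 0.484) and -0.17 (SE 0.08, adjusted p = 0.182). Actc1, cardiac actin, fell by 0.33 (SE 0.08, adjusted p = 0.0364), and the summed log2 level of the list was 11.73 to 11.82 in sham and 11.59 to 11.63 in tail-suspended hearts. These levels are relative to the 75th percentile, which was 302 to 322 in sham and 341 to 376 in tail-suspended hearts. The processed intensities of Tnnt2, Tnni3 and Actc1 overlapped between the groups. Of 8 tested atrial markers Mybphl, which entered the test only through the tail-suspended hearts, was past the threshold on the higher side, and 1 fell, Nr2f1, a COUP-TF nuclear receptor (-0.80, SE 0.11, adjusted p = 0.00669). The summed log2 level of the atrial list, which holds Nppa, was 6.997 to 7.84 in sham hearts and 9.15, 7.67 and 9.36 in tail-suspended hearts, and the defining marker Bmp10 was not well above background on any array. Irx4, a ventricular homeobox factor, fell by 0.44 (SE 0.12, adjusted p = 0.047), 1 of 3 ventricular markers. Hey2 had a log2 fold change of 0.40 (adjusted p = 0.135) and Irx5 one of -0.06 (adjusted p = 0.814), and the median of the list was -0.06. Smtn, the smooth muscle protein smoothelin, fell by 0.56 (SE 0.11, adjusted p = 0.0213) by its brightest probe and by 0.81 (adjusted p = 0.00778) by its other. It was 1 of 7 tested smooth muscle markers, whose median was 0.36. The other 6, which include Cnn1, Myh11 and Tagln at 0.64, 0.51 and 0.36, were all above 0 and did not pass the threshold (adjusted p between 0.0980 and 0.607). The part of these markers in the member values was not tested.

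Most of these calls on single listed genes, each by its brightest tested probe, were near the threshold. When the row on the slide was a block, 0 listed genes rose past the threshold and 2 fell. By the authors' log2 values the log2 fold change of Actc1 was -0.07 (adjusted p = 0.522). Leaving out 1 array ended the calls of several genes. Without sham replicate 2, the adjusted p of Actc1 was 0.119, of Gata4 0.121, of Irx4 0.147, of Myh10 0.0982, of Myh14 0.106, of Smtn 0.0753 and of Tbx5 0.0834. Without tail-suspension replicate 3, the same 7 genes and Mybpc2 did not pass (adjusted p between 0.0569 and 0.131). Without sham replicate 1, Actc1, Gata4, Irx4, Myh10 and Smtn were lost (between 0.0532 and 0.122), and without sham replicate 3, Actc1, Gata4, Irx4, Myh14, Smtn and Tbx5 (between 0.0536 and 0.0750). Without tail-suspension replicate 1, Actc1, Mybpc2, Myh10 and Tbx5 did not pass (between 0.0532 and 0.0796), nor did Actc1, Gata4, Irx4 and Myh14 without tail-suspension replicate 2 (between 0.0576 and 0.0869). Ankrd1, Nr2f1, Ppp1r12b and Ppp1r12c kept their calls whichever array was left out.

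The probes most like Myh7 and Mhrt over the 6 arrays were sought by the root mean square difference of log2 levels, each centred on its own mean. Nearest to Myh7 were a probe without a gene name (0.24), Ptgds, the lipocalin-type prostaglandin D synthase (0.26), and E130118H10Rik (0.28). Ptgds had intensities of 16300, 38290 and 24620 in sham hearts and 150200, 132000 and 181100 in tail-suspended hearts. E130118H10Rik had 3.95, 16.5 and 13.7 in sham hearts and 34.2, 42.9 and 37.9 in tail-suspended hearts. In sham replicates 1 and 3 this was below the lowest signals well above background, 14.9 and 15.5. It therefore entered the test only through the tail-suspended hearts, and its rank rests in part on values known only as bounds. Nearest to Mhrt were Slc38a5, an amino acid transporter (0.24), Lamc3, a laminin chain (0.31), and Ces2e, a carboxylesterase (0.34). Slc38a5 had 68.6, 74.5 and 61.6 in sham hearts and 9.80, 10.6 and 9.03 in tail-suspended hearts, and Lamc3 had 6.27, 4.23 and 3.91 in tail-suspended hearts. These values of both genes in tail-suspended hearts lie below the lowest signal that was well above background on those arrays, 14.04 to 19.7, so their ranks rest in part on values known only as bounds.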

How the data were processed

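Heart RNA of 3 samples labelled sham and 3 labelled tail-suspension was hybridised to 1 array each. The authors deposited scanner output of Agilent Feature Extraction (version 10.7.1.1 per the submitters' processing notes) with spot intensity values, and 1 table of log2 values that were quantile normalized or close to it. Here log2 of the processed intensity was scaled to the 75th percentile of all noncontrol spots, spots with an outlier flag were then left out, and spots of a probe were averaged. Probes well above background on all arrays of either group were compared by lmFit and eBayes of limma 3.58.1 in R 4.3.3, without covariates and with Benjamini-Hochberg adjustment. Members and gene lists were chosen with earlier results of these data known. Named are all member probes, in each list the genes past the threshold (at most the 4 largest changes), 10 defining genes of the heart, probes within 100 kb of the locus, and the 3 nearest by pattern. When tail-suspension against sham was simulated on 28003 probes, 73% of those changed by 1 and 99% of those changed by 2 on the log2 scale were called, and 8 unchanged ones. Only 200 probes were changed there, far fewer than were called in the data, and no effect of the slide's row was included. These shares therefore need not hold for the real arrays. Array positions are on mm9, and RefSeq sequences on GRCm38.p6. Exon or intron was not assigned, as no genome was used.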

Additional observations from a re-analysis of the deposited data

How the results depend on the processing

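Past the threshold, 2 member probes were higher and 4 lower, and 6 listed genes were higher and 8 lower. Member probes that were higher numbered 1 without a filter on dim probes, with the slide's row as a block and in the methods' t-test, and 1 to 2 when 1 array was left out; Myh7 was the probe lost. They numbered 3 with an intensity trend, where Mylk3 at base 1931 passed. Member probes that were lower numbered 2 with the row as a block, where Mhrt and Myl1 at base 107 remained, 3 in the methods' t-test, where the Myh6 probe at base 308 did not pass, and 4 whichever array was left out. Listed genes that were higher numbered 3 without the filter, 0 with the row as a block and 2 in the methods' t-test, and 3 to 9 when 1 array was left out. Listed genes that were lower numbered 14 with array weights and with an intensity trend, 2 without the filter, 2 with the row as a block and 3 in the methods' t-test, and 2 to 6 when 1 array was left out. The row of the slide holds both groups only in its first row, and as a block it left 320 probes higher and 177 lower of all, against 3023 and 2683. The labels do not say whether replicate numbers pair the samples. Deviations of same-numbered samples were hardly correlated (between -0.0200 and 0.0495), which cannot exclude a pairing. With a replicate block 3 listed genes were lower and 1714 probes higher and 1403 lower of all. Without the filter, the probes higher and lower of all were 1041 and 790, and 1532 and 1248 by the methods' t-test with Benjamini-Hochberg adjustment. With array weights they were 4462 and 4352 of 28003 tested probes, and with an intensity trend 3583 and 3323 of 28032. Calls under these 2 settings thus rose over all probes as well. Left-out arrays gave 1008 to 2885 higher and 749 to 2701 lower. No log2 fold change of a member past the threshold turned its direction under any of the 18 settings. The level of Myl7 is limited by background.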
